A study of Drosophila melanogaster with 55 samples.

Results

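Transposable elements that sit in the gene-rich arms of the fruit fly Drosophila melanogaster were examined for heterochromatin protein HP1 and for its partner marks H3K9me2 and H3K9me3, the di- and trimethylated forms of lysine 9 of histone H3. An element was taken when the reference annotation lists it as a mobile element of at least 1000 bp and places it in the euchromatin of arms 2L, 3L, 3R or X. This gave 668 of the 5734 annotated elements, and 1279 shorter elements in the same stretches of the arms were set aside. The 668 were spread over 3R with 180, 2L with 178, X with 160 and 3L with 150. They belonged to 75 families, of which 27 had 8 or more members and held 520 elements. By class, 361 were LTR retrotransposons, 184 were LINE-like retrotransposons without long terminal repeats, 105 were DNA transposons with terminal inverted repeats (TIR) and 18 were of other kinds. The shortest was 1002 bp, the median 4728 bp and the longest 26406 bp, and 327 lay wholly in an intron, 284 between genes, 35 in a gene with exon bases and 22 partly in a gene.

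Chromatin from adult heads of flies aged 1 to 2 weeks was immunoprecipitated and sequenced. HP1 was profiled in 2 libraries of AGO2 1-1-7, 2 of the double mutant Top3b26;AGO2 1-1-7, 3 of Top3b26 and 3 of w1118, and each methyl mark in 3 libraries of Top3b26 and 3 of w1118. AGO2 1-1-7 is a null allele of the Argonaute gene AGO2 made with Cas9, with deletions in the promoter and in exon 6. Top3b26 is a mutation of the topoisomerase gene Top3b made by remobilizing a P element, and w1118 is the control line. A complementation set had 1 HP1 library each of Top3b26 with an Act-Gal4 driven transgene for Top3b WT, Y332F or dRGG, of Top3b26 itself and of w1118. Top3b was profiled in 3 libraries of w1118, and the FLAG tag in 2 libraries of flies with FLAG-tagged AGO2 and 1 of untagged w1118. Coverage is the percentage of bases inside the enriched regions, called islands, of a library, counted for the body of an element and for its flanks, the 5 kb on each side. The rest of euchromatin, all bases of the same arm stretches outside elements and flanks, was measured in the same way.

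HP1 is a chromatin protein that binds H3 methylated on lysine 9, and the marks and the protein together are the signature of heterochromatin. Most heterochromatin lies around centromeres and telomeres, and transposable elements are among the sequences it silences. Retrotransposons move through an RNA copy, TIR elements as DNA, and many elements duplicate a few bases of the target site when they insert. AGO2 is the Argonaute protein of the small interfering RNA pathway, which targets transposon RNA in somatic tissue.

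The insertion points of 6 elements show what was measured: single-copy genomic sequence running into an element, whose first bases are repeated in the genome in 5 of the 6. The sequences were read from the RefSeq assembly Release 6 plus ISO1 MT (dm6). Each line gives 50 genomic bases in lower case and the first 50 bases of the element in capitals, written along the strand of the element. The first 3 elements belong to families that carried HP1 in w1118 and the last 3 to families that did not.
F{}397: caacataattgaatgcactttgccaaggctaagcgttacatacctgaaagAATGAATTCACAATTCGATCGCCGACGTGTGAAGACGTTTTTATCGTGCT
HMS-Beagle{}347: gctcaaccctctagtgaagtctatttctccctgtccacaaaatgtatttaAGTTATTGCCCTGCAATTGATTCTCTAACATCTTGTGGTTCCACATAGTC
1360{}420: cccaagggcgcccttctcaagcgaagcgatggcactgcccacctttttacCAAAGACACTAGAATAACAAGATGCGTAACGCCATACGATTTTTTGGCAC
roo{}1708: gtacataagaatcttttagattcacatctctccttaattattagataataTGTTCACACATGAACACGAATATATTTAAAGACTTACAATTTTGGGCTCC
copia{}920: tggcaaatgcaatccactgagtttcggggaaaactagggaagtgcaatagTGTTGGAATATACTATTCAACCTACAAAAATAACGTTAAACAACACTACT
412{}902: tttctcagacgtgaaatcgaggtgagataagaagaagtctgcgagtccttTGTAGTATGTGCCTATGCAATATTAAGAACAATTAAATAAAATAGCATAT

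F{}397, a LINE-like element of 4708 bp in an intron of the cadherin gene CadN, spans this window at chr2L:17687492-17687591 on the plus strand. HMS-Beagle{}347, an LTR element of 7072 bp between genes, is at chr2L:12565397-12565496 on the minus strand, and 1360{}420, a TIR element of 3409 bp between genes, at chr2L:19737361-19737460 on the plus strand. The LTR elements roo{}1708 in an intron of CG42747, copia{}920 in an intron of Eip63E and 412{}902 in an intron of bab1 are at chr3L:6405664-6405763 (plus), chr3L:3601304-3601403 (plus) and chr3L:1055112-1055211 (minus). The 50 genomic bases occur once in the genome in all 6. The 50 bases of element occur once for F{}397 but 25 times for HMS-Beagle{}347, 125 times for 1360{}420, 286 times for roo{}1708, 108 times for copia{}920 and 67 times for 412{}902. The last genomic bases are repeated just after the far end of 4 of the elements: ttta at HMS-Beagle{}347, tttttac at 1360{}420, taata at roo{}1708 and aatag at copia{}920.

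Such direct repeats of 4 bases or more flanked 360 of the 668 elements (53.9%), including 270 LTR elements (74.8%). All 23 copia elements had one of 5 bases, as had 66 roo elements, while 19 elements of 1360 had one of 7 bases, 15 of H one of 8 bases and 10 of FB one of 9 bases. These are annotated insertions of the reference strain. Whether each is present in w1118 and in the mutant stocks was not measured.

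Sequence repetition limits what the bodies can show. Only a median of 3.46% of the 50-base words of a body occur 3 times or fewer in the genome, against 100% in the flanks, and 496 elements have fewer than 10% such words. The methods of the study state that reads with more than 3 hits were not counted. Yet 23 F elements averaged 1.51% such words and 90.5% HP1 body coverage in w1118, so whether the deposited lists follow this rule is not known. Where a body is mostly repeated words, its coverage cannot be assigned to that insertion alone. Elements of a family are therefore not taken as independent of each other. Members also cluster: 63 overlap another, and the 668 form 522 loci when neighbours within 10 kb are joined. A single isolated element makes up 454 of these loci, and the other 214 elements are called grouped below.

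Elements carried more HP1, H3K9me2 and H3K9me3 than the rest of euchromatin in every library. HP1 covered 26.4% of the bodies and 10.6% of the flanks, against 4.80% of the rest of euchromatin, as means over 10 libraries. The difference was 21.6 ± 6.80 points in bodies and 5.82 ± 1.77 points in flanks (SD, n = 10; exact two-sided sign-flip test over libraries, p = 0.00195 and adjusted p = 0.00586 for both). H3K9me2 covered 27.9% of bodies and 9.86% of flanks, against 3.00% of the rest, and H3K9me3 28.6% and 8.27%, against 1.14% (n = 6 each; exact sign-flip p = 0.0312, adjusted over 6 tests to 0.0312, in all 4 cases). These p-values are the smallest that 10 and 6 libraries can give. The methyl mark libraries of a line share its input DNA. The study describes separate ChIP experiments, and nothing in the labels says whether they came from separate cultures of flies, so the p-values measure only the spread between these libraries.

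**Figure D1:**
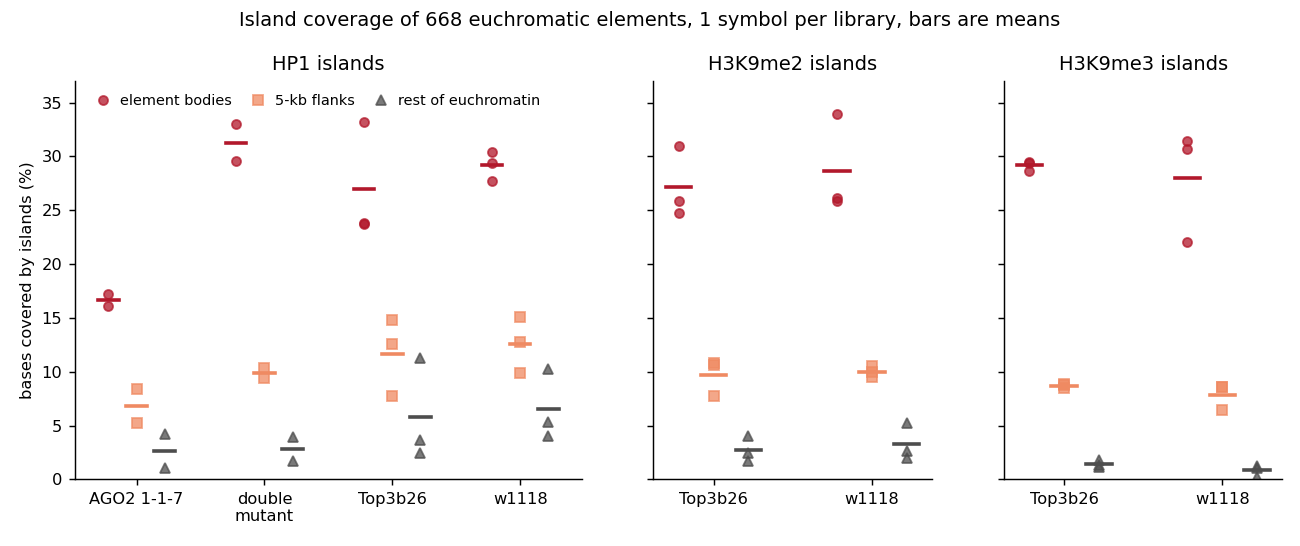
Percentage of bases inside islands (y axis) for element bodies, for their 5-kb flanks and for the rest of euchromatin, 1 symbol per library, with bars for means, by line (x axis) in panels for HP1, H3K9me2 and H3K9me3. In every library the bodies lie above the flanks and the flanks above the rest, and the 2 AGO2 1-1-7 libraries have the lowest HP1 bodies, at 16.1% and 17.2%.

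The excess in the flanks was small around isolated elements and large around grouped ones. Flanks of the 454 isolated elements exceeded the rest of euchromatin by only 0.563 points for HP1 (exact sign-flip p = 0.0195, n = 10), 0.0647 points for H3K9me2 (p = 0.781, n = 6) and 0.374 points for H3K9me3 (p = 0.0312, n = 6). Their bodies exceeded it by 17.8, 19.6 and 22.4 points for the 3 targets. In the 214 grouped elements, flanks were covered to between 11.6% and 29.8% by HP1 over the 10 libraries, to between 20.1% and 28.1% by H3K9me2 and to between 18.9% and 23.9% by H3K9me3. A flank of a grouped element can itself hold another element.

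Coverage dropped within the first kilobase outside an isolated element. In the 9 families with the most HP1 in w1118, HP1 covered 84.6 ± 4.32% of bases between 500 and 1000 bp inside the end in w1118, 30.4 ± 5.84% in the first 500 bp outside, 16.2 ± 6.86% in the next 500 bp and 7.70 ± 3.15% between 4500 and 5000 bp (SD, n = 3). The first 500 bp outside had 18.9 ± 2.60% H3K9me2 and 14.3 ± 4.41% H3K9me3 in w1118, and the next 500 bp 8.33 ± 0.707% and 4.65 ± 1.86%. The 9 families were chosen on HP1 in w1118, so their level inside the element is a description. Values inside come only from elements of 2000 bp or more, while those outside come from elements of all lengths. The step at the element end thus compares different sets of elements. Dm88, an LTR family among the 9, has no isolated element and adds nothing to these values. The sides were alike in size: over all elements HP1 in w1118 covered 9.98%, 15.5% and 13% of the flank at the 5′ end and 9.69%, 14.8% and 12.5% at the 3′ end.

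**Figure D2:**
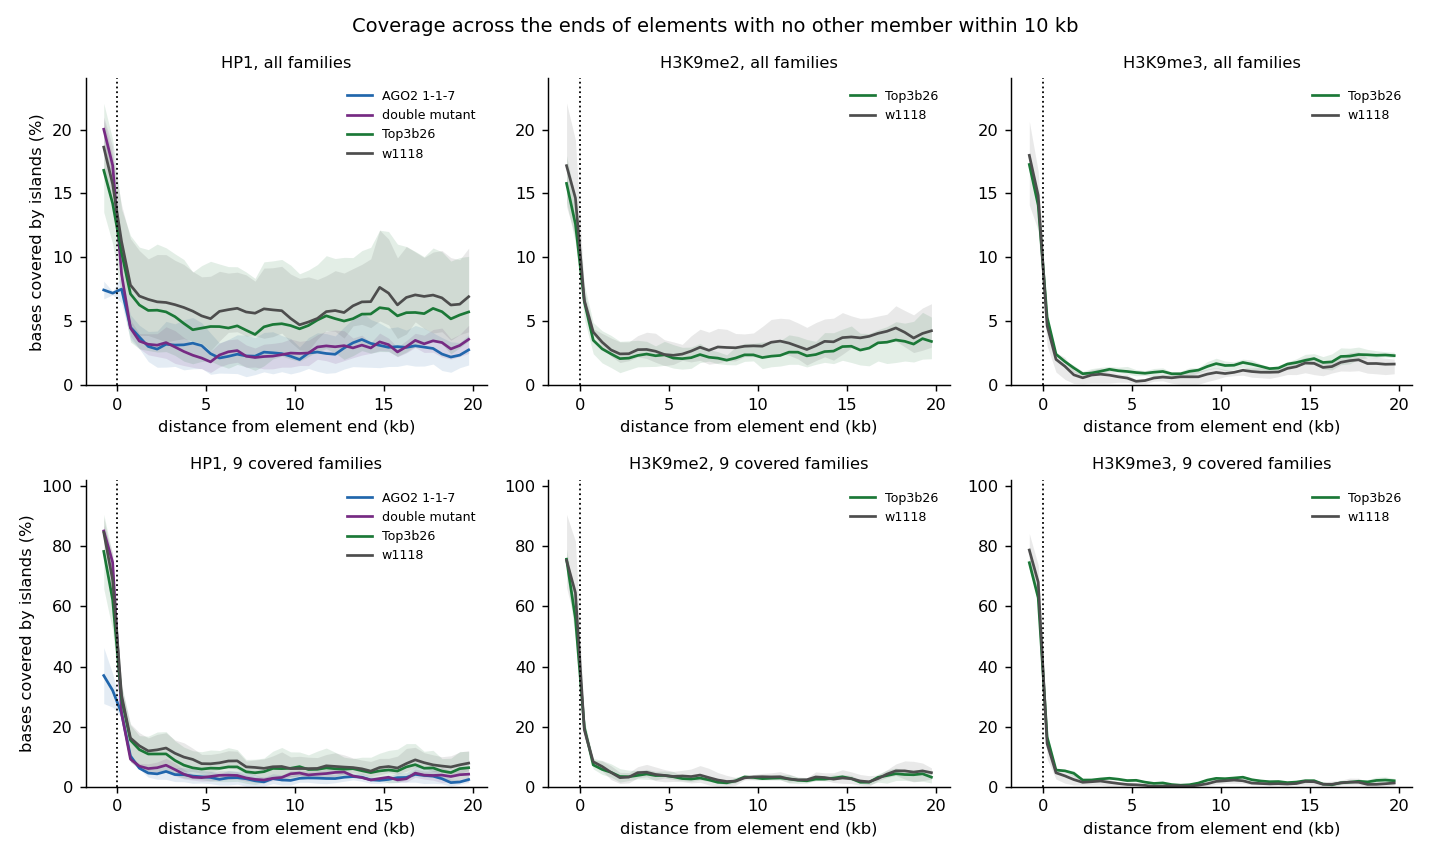
Percentage of bases inside islands (y axis) against distance from the element end in kb (x axis, negative inside the element) for the 454 isolated elements, for all families above and for the 9 families with most HP1 below, with a panel for each target. Lines are means of libraries and shading runs from the lowest to the highest library. In the 9 families HP1 of AGO2 1-1-7 is at 37% between 500 and 1000 bp inside and 10.2% between 500 and 1000 bp outside, and w1118 is at 84.6% and 16.2%. Values inside are from elements of 2000 bp or more only, and Dm88 has no isolated element.

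The families split into covered and bare. Of the 27 families with 8 or more members, 9 had 60% or more of their body bases in HP1 islands in w1118, 3 had 10 to 60%, 2 had 2 to 10% and 13 had under 2%. The 9 covered families came from every main class. They were the LINE-like Rt1b (96.0 ± 0.898%), X (95.7 ± 0.863%), F (90.9 ± 6.48%) and I (71.4 ± 9.04%), the TIR elements hopper (99.6 ± 0.555%), S (87.3 ± 6.26%) and 1360 (84.6 ± 4.12%), and the LTR elements Dm88 (94.7 ± 3.81%) and HMS-Beagle (75.4 ± 2.82%) (SD, n = 3). Islands covered at least 50% of most copies in every HP1 library of w1118. This held for 23 of 24 F elements, all 14 of Rt1b, all 9 of HMS-Beagle, all 8 of X and all 8 of hopper. It held for 12 of 13 of Dm88, 12 of 15 of I, 12 of 16 of S and 21 of 27 of 1360. Where bodies are mostly repeated words, as in F and HMS-Beagle, these counts do not show how many insertions carried HP1. All 13 Dm88 elements lie at a single locus on 3R, so this family stands for that site.

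The bare families included several numerous LTR retrotransposons. The 86 roo elements averaged 0.310 ± 0.116% HP1 in w1118, and 84 of them had 0 body coverage in all 9 w1118 libraries of the 3 targets. No copia, blood or opus body, 23, 18 and 14 elements, was touched by an island of HP1 or a methyl mark in any w1118 library, and the 23 elements of 412 averaged 0.0125 ± 0.0108% HP1. The LINE-like jockey (0.0864 ± 0.150%, 24 elements) and the TIR element pogo (0%, 12 elements) were bare too. In between were the LINE-like Rt1c (50.5 ± 8.40%) and Doc (8.42 ± 5.67%), the LTR element 297 (13.5 ± 3.53%), the foldback element FB (13.3 ± 2.54%) and the TIR element H (3.53 ± 2.28%). The depth of the libraries is not known, so a body without islands is below what these lists call, not without HP1.

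Families with HP1 also carried the methyl marks. Across the 27 families HP1 in w1118 followed H3K9me2 (Pearson r = 0.954, Spearman rho = 0.853) and H3K9me3 (r = 0.941, rho = 0.879), where the points share the elements, the line and the mapping. 3S18, an LTR family of 8 elements, stood apart with 0% HP1 in all w1118 libraries and H3K9me3 at 6.73%, 68.5% and 67.7%. Its H3K9me2 in w1118 was 25.1%, 65.6% and 8.81%, so both marks varied widely between libraries. mdg3, an LTR family, had 23.5 ± 4.08% H3K9me2 and 1.89 ± 3.27% HP1 in w1118.

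**Figure D3:**
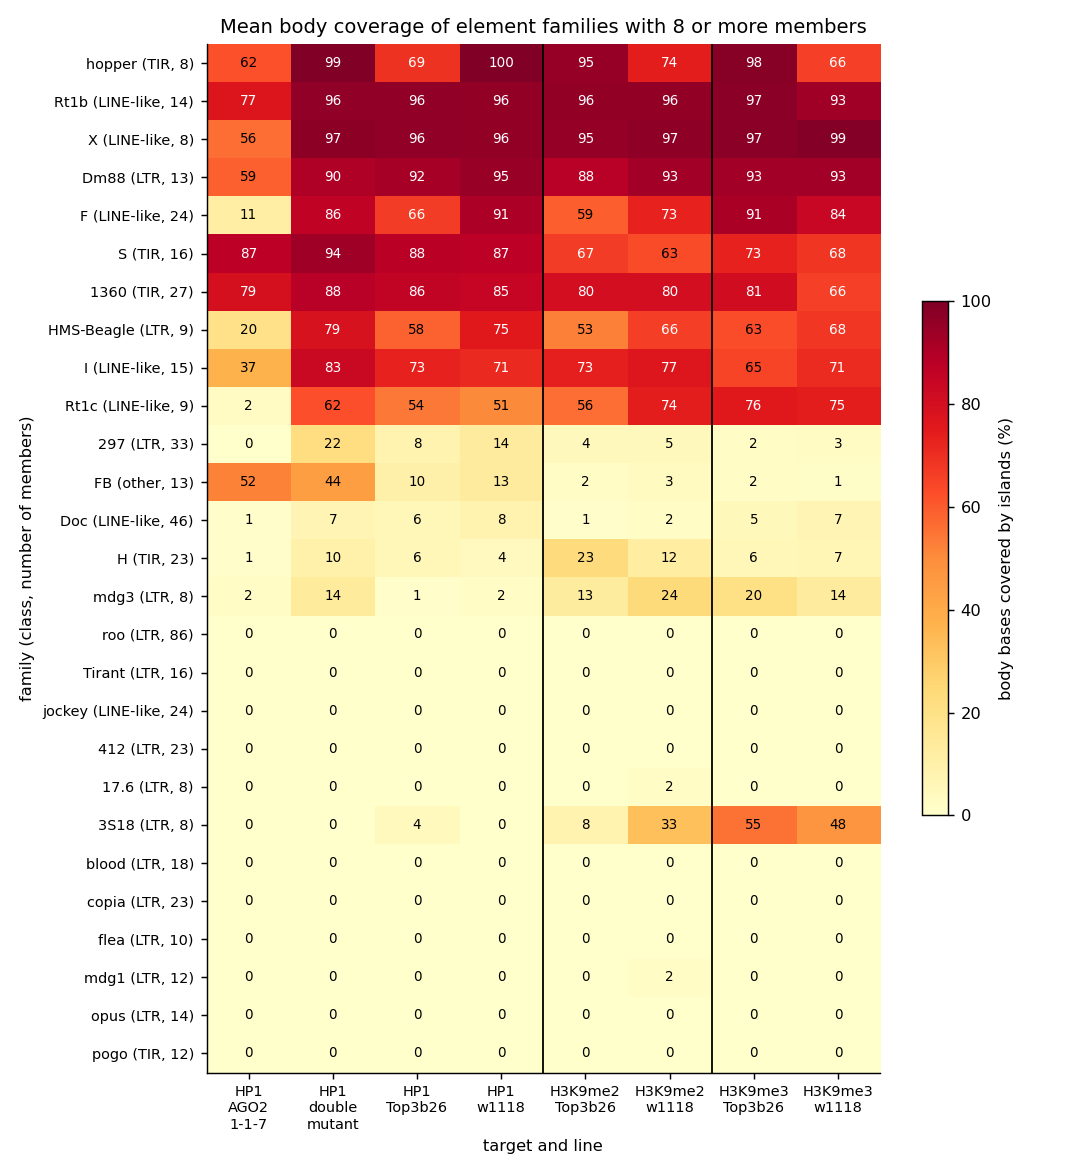
Heat map of mean body coverage by islands in percent (colour) for the 27 families with 8 or more members, with class and number of members (y axis), by target and line (x axis). The 9 families at the top have between 71.4% and 99.6% HP1 in w1118, and F, HMS-Beagle and Rt1c turn pale only in the AGO2 1-1-7 column, at 11.3%, 19.7% and 2.37%.

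Coverage differed with the repetition of sequence, though not in 1 direction throughout. HP1 in w1118 was at 16.9 ± 1.72% in the 233 bodies with 0 to 2% of words found 3 times or fewer, 14.2 ± 1.00% at 2 to 5%, 28.6 ± 1.95% at 5 to 10%, 55.9 ± 0.970% at 10 to 25% and 75.7 ± 2.98% at 25 to 50% (SD, n = 3). The 48 bodies with 90% or more such words were lower again, at 53.2 ± 3.63%, after 63.5% in 11 bodies at 50 to 75% and 79.2 ± 3.27% in 13 bodies at 75 to 90%. Across the 27 families the share of such words and HP1 gave r = 0.579 and rho = 0.467, and the share of a family's annotated bases that lie outside the euchromatic stretches gave r = 0.538 and rho = 0.333. The split between families was as wide among elements of under 25% such words alone: 90.5% HP1 in 23 F elements, 75.4% in 9 HMS-Beagle elements and 97.4% in 16 elements of 1360, against 0.314% in 85 roo elements and 0% in 23 copia elements. Shorter elements had more HP1, 54.2 ± 0.919% at 1000 to under 2000 bp, 35.0 ± 3.02% at 2000 to under 5000 bp and 13.3 ± 1.06% at 5000 bp or more, and median length went with HP1 across families at r = -0.512 and rho = -0.507. Elements under 1000 bp, which were not among the 668, had 31.4 ± 3.30% HP1 in their bodies in w1118. Bodies with a direct repeat at their ends averaged 17.4% and those without one 43.0%, but LTR elements make up 270 of the 360 with a repeat. By class the values with and without a repeat were 7.90% and 28.9% in LTR elements and 39.2% and 51.3% in LINE-like elements, and ran the other way in TIR elements, at 55.8% and 43.8%, and in 1360, at 97.8% and 53.1%.

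**Figure D4:**
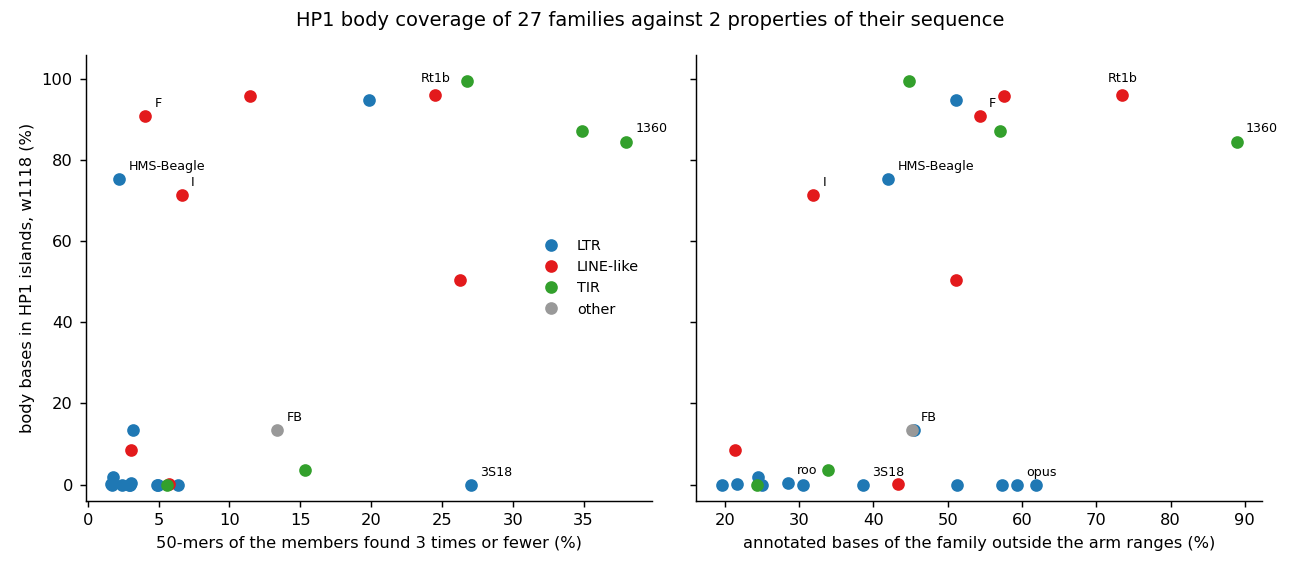
HP1 body coverage in w1118 in percent (y axis) for the 27 families, 1 point per family coloured by class, against the percentage of 50-base words found 3 times or fewer in the genome (left x axis) and against the percentage of annotated family bases outside the euchromatic stretches (right x axis). F and HMS-Beagle are high at 4.07% and 2.23% such words, and opus is at 0% HP1 although 59.4% of its bases lie outside.

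Elements between genes had a higher mean HP1 coverage in w1118 than elements in introns, in bodies and in flanks, a difference that was not tested. HP1 in w1118 covered 32.8 ± 1.52% of bodies between genes and 25.0 ± 1.30% of bodies in introns, and 17.1 ± 2.18% and 8.87 ± 3.02% of their flanks (SD, n = 3). H3K9me3 in w1118 covered 14.5 ± 1.76% of flanks between genes and 2.60 ± 0.904% in introns. By arm, HP1 body coverage in w1118 lay between 24.5 ± 2.21% on 3L and 37.2 ± 0.475% on 3R.

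Bodies had less HP1 in AGO2 1-1-7 than in w1118. Body coverage was 16.1% and 17.2% in AGO2 1-1-7, against 29.4%, 27.7% and 30.4% in w1118, so that the libraries did not overlap. The difference was -12.5 points (exact two-sided permutation test over libraries, p = 0.1, the smallest that 2 against 3 libraries allow; adjusted over 12 tests, 0.6). Flank coverage was 5.27% and 8.38% in AGO2 1-1-7, against 9.84%, 15.1% and 12.8% in w1118, a difference of -5.75 points (exact permutation p = 0.2, adjusted 0.6). HP1 coverage of the rest of euchromatin was also low in AGO2 1-1-7, at 1.05% and 4.25%, against 4.08%, 10.3% and 5.36% in w1118. With that background subtracted the differences were -8.59 points in bodies and -1.84 points in flanks. Flanks of isolated elements had 2.27% and 5.22% in AGO2 1-1-7, against 1.05% and 4.25% of the rest. In w1118 they had 4.16%, 10.30% and 6.33%, against 4.08%, 10.25% and 5.36% of the rest. Their mean excess over the rest was thus not lower in AGO2 1-1-7. Fewer cells with HP1 on an element and less HP1 in each cell cannot be told apart in whole heads. The HP1 lists of replicates 2 and 3 of w1118, and of Top3b26, join islands over a longer distance than the other HP1 lists. Without w1118 replicates 2 and 3 the body difference was -12.7 points and the flank difference -3.02 points.

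The low coverage differed by element and by family. Of the 232 elements covered in every w1118 library, 119 (51.3%) had lower body coverage in both AGO2 1-1-7 libraries than in any w1118 library, and 6 elements had higher. The same call was made for 3.66% of all 5-kb windows of these arms and 34.1% of windows covered in w1118, and the higher call for 0.253% of all windows and 5.83% of covered windows. The 119 elements came from 31 families, and 64 of them were isolated. Leaving out a library can only relax such a call, here and below, and shares of windows were not computed without a library. Under the relaxed call without AGO2 1-1-7 replicate 2 there were 20 elements in place of the 6. At the level of families, 9 of 27 (33.3%) were lower in every AGO2 1-1-7 library than in every w1118 library, and 1 (3.70%) was higher. Of all 75 families, 31 (41.3%) were lower and 2 (2.67%) were higher.

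F elements, LINE-like retrotransposons, had the largest difference of the 27 families, -79.6 points. Their body coverage was 4.17% and 18.5% in AGO2 1-1-7, against 91.4%, 84.2% and 97.1% in w1118. HMS-Beagle, an LTR retrotransposon, had 15.9% and 23.5% in AGO2 1-1-7, against 74.4%, 78.6% and 73.2% in w1118. Rt1c had 4.75% and 0% in AGO2 1-1-7, against 60.1%, 47.2% and 44.3% in w1118. These 3 families were far below every w1118 library in both AGO2 1-1-7 libraries.

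The I element, the LINE-like retrotransposon of I-R hybrid dysgenesis, had 44.0% and 30.8% in AGO2 1-1-7, against 66.4%, 66.0% and 81.8% in w1118. The LTR element 297 had 0% and 0.0223% in AGO2 1-1-7, against 14.3%, 9.71% and 16.7% in w1118. Dm88 had 37.8% and 79.8% in AGO2 1-1-7, against 90.3%, 96.9% and 97% in w1118, and X had 20.4% and 91.4% in AGO2 1-1-7, against 95.2%, 95.3% and 96.7% in w1118. For Dm88 and X the 2 AGO2 1-1-7 libraries thus differed more from each other than the second did from w1118.

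Other covered families differed less or varied between libraries. 1360 had 82.3% and 76.4% in AGO2 1-1-7, against 80.3%, 85.0% and 88.5% in w1118, and S averaged 87.3% in both lines (SD 8.52, n = 2, against 6.26, n = 3). hopper had 99% and 25% in AGO2 1-1-7, against 99%, 99.8% and 100% in w1118, and 12.5% in Top3b26 replicate 2, so that it was nearly full or nearly empty by library. FB was the 1 family of the 27 that was higher, with 71.8% and 32.8% in AGO2 1-1-7, against 11.3%, 12.6% and 16.2% in w1118. FB also varied within the double mutant (78.7% and 8.92%) and was between 94.9% and 100% in the complementation set, w1118 included at 100%.

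**Figure D5:**
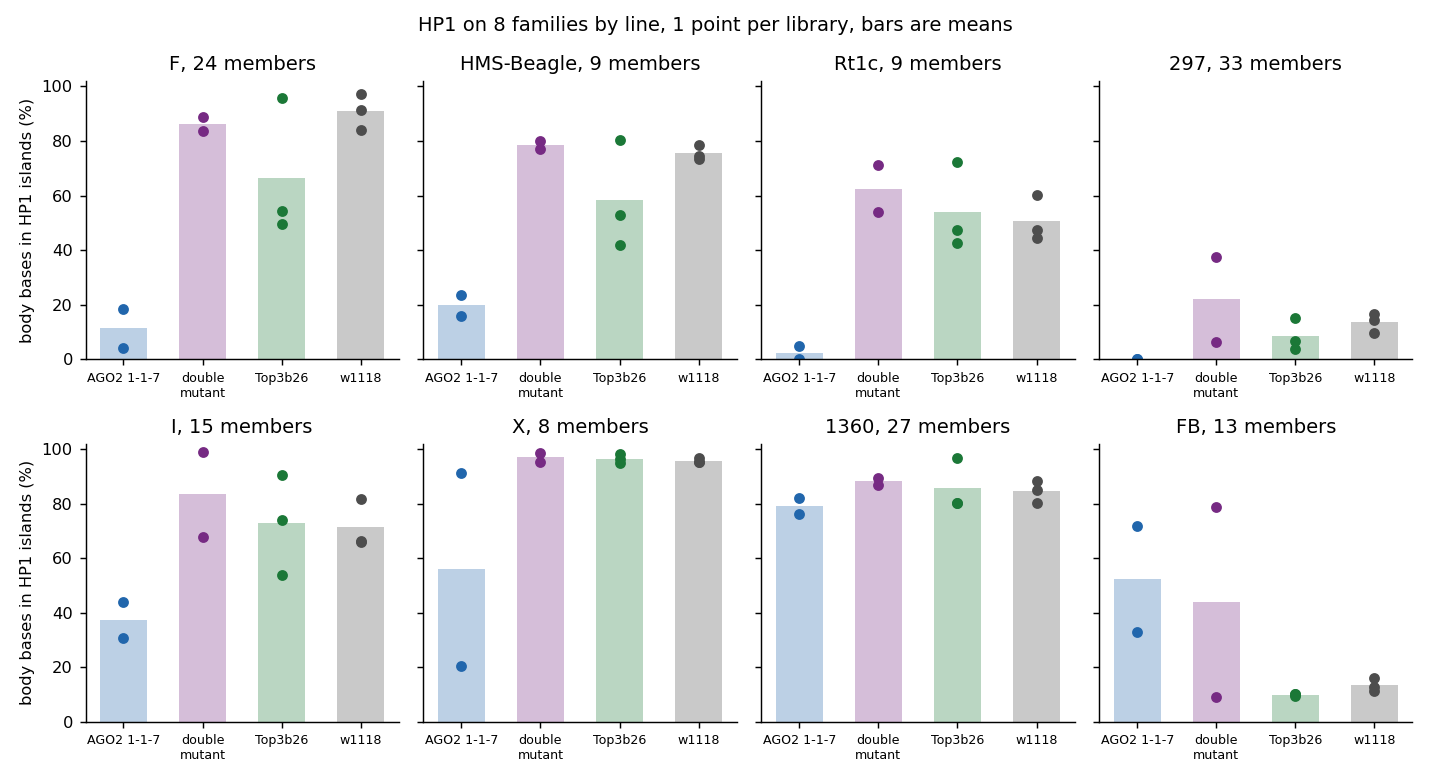
HP1 body coverage in percent (y axis) of 8 families by line (x axis), 1 point per library, with bars for means; the 8 families were chosen after their values were seen. F is at 4.17% and 18.5% in AGO2 1-1-7 and at 83.8% or more in both double mutant libraries, while 1360 lies at 76.4% or more in all 10 libraries.

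Body coverage in the double mutant was above AGO2 1-1-7 and overlapped w1118. It was 33% and 29.5% in the double mutant, against 16.1% and 17.2% in AGO2 1-1-7, a difference of 14.6 points without overlap (exact permutation p = 0.333, the smallest that 2 against 2 allow; adjusted 0.6). Against w1118 the difference was 2.10 points with overlap (exact permutation p = 0.4, adjusted 0.6). These comparisons share libraries with the one of AGO2 1-1-7 and w1118 and are not independent of it. Of the 258 elements covered in both double mutant libraries, 152 (58.9%) were higher than in both AGO2 1-1-7 libraries, against 2.08% of all 5-kb windows and 27% of covered windows. Of the 118 elements covered in both AGO2 1-1-7 libraries, 2 (1.69%) were lower in the double mutant, against 0.895% of all windows and 20.6% of covered windows. Leaving out double mutant replicate 1, AGO2 1-1-7 replicate 1 or AGO2 1-1-7 replicate 2 gave 9, 6 and 8 in place of the 2.

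Of the 232 elements covered in every w1118 library, 7 (3.02%) were lower in the double mutant than in w1118, against 2.19% of all 5-kb windows and 20.4% of covered windows. Higher were 17 elements, against 0.156% of all windows and 2.03% of covered windows. Under the relaxed call these counts were 35 and 44 without double mutant replicate 1, 21 and 90 without its replicate 2, and 29 and 30 without w1118 replicate 1. Leaving out w1118 replicate 2 moved the lower count to 13, and leaving out w1118 replicate 3 moved the higher count to 26.

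Family by family, 14 of 27 (51.9%) were higher in both double mutant libraries than in both AGO2 1-1-7 libraries and 0 were lower. Of all 75 families, 39 (52%) were higher and 0 were lower. F had 88.8% and 83.8% in the double mutant, HMS-Beagle 80.1% and 77.1%, Rt1c 53.8% and 71.0%, I 99% and 67.8%, and 297 37.4% and 6.32%. Against w1118, 2 of 27 families (7.41%) were higher in both double mutant libraries, H with 9.71% and 9.36%, against 0.955%, 5.30% and 4.35% in w1118, and mdg3 with 8.88% and 19.1%, against 5.66%, 0% and 0% in w1118. None of the 27 was lower. H and mdg3 were low in every line. Of all 75 families, 4 (5.33%) were higher in both double mutant libraries than in w1118 and 6 (8%) were lower.

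Flanks differed less between lines than bodies. Double mutant flanks had 9.44% and 10.3%, against 5.27% and 8.38% in AGO2 1-1-7, a difference of 3.07 points without overlap (exact permutation p = 0.333, adjusted 0.6), which was -0.119 points over isolated elements. Against w1118 the double mutant difference was -2.68 points (exact permutation p = 0.3, adjusted 0.6), and 1.09 points once the rest of euchromatin was subtracted. Of 249 elements with flanks covered in every w1118 library, 104 (41.8%) were lower in both AGO2 1-1-7 libraries, against 6.14% of all 10-kb windows and 35.0% of covered windows, and 30 of the 104 were isolated. The count was 159 without AGO2 1-1-7 replicate 2 and 166 without w1118 replicate 1. In the double mutant 110 elements were higher than in AGO2 1-1-7 (3.28% of all windows, 25.4% of covered windows), of which 27 were isolated, and the count without double mutant replicate 1 was 169. Calls in the other directions were fewer. Higher in AGO2 1-1-7 than in w1118 were the flanks of 5 elements (0.324% of all windows, 4.2% of covered windows), a count of 38 without AGO2 1-1-7 replicate 1, 29 without AGO2 1-1-7 replicate 2 and 10 when w1118 replicate 2 was left out. Lower in the double mutant than in AGO2 1-1-7 were 10 (1.43% and 18.6%), with 89 when AGO2 1-1-7 replicate 1 was left out and between 24 and 33 when any other of the 4 libraries was. Against w1118, flanks in the double mutant were lower for 31 elements (3.96% and 22.6%) and higher for 17 (0.226% and 1.75%). Under the relaxed call these 2 counts were 59 and 37 without double mutant replicate 1, 87 and 61 without its replicate 2, and 108 and 26 without w1118 replicate 1. The lower count was 58 once w1118 replicate 3 was left out.

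Top3b26 and w1118 overlapped in every measure of the whole set. HP1 body coverage was 23.7%, 23.9% and 33.2% in Top3b26, against 29.4%, 27.7% and 30.4% in w1118 (difference -2.26 points, exact permutation p = 0.4, adjusted 0.6). HP1 flank coverage was 7.71%, 14.8% and 12.6% in Top3b26, against 9.84%, 15.1% and 12.8% in w1118 (difference -0.879 points, exact permutation p = 0.6, adjusted 0.72). The flank difference changed sign without Top3b26 replicate 1 (1.11 points) and without w1118 replicate 2 (0.396 points), each of which breaks up a pair of same-numbered libraries. Within all 3 same-numbered pairs, whose libraries deviated together, flanks were lower in Top3b26 (exact sign-flip p = 0.25, the smallest that 3 pairs allow). Body coverage was lower for 2 elements and higher for 2, against 0.124% and 0.0539% of all 5-kb windows and 1.16% and 0.882% of covered windows. The lower count was 55 without Top3b26 replicate 3, whose bodies had the most HP1, and between 2 and 19 without any other library, and the higher count at most 10, without Top3b26 replicate 2.

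In Top3b26 the F elements had 54.3%, 49.4% and 95.6% HP1, against 91.4%, 84.2% and 97.1% in w1118, and HMS-Beagle had 41.9%, 52.8% and 80.3% in Top3b26, against 74.4%, 78.6% and 73.2% in w1118. Replicates 1 and 2 of Top3b26 were below w1118 in both families and replicate 3 was within or above it, and against the same-numbered w1118 library F was lower in all 3 and HMS-Beagle in replicates 1 and 2. FB was the 1 family of 27 (3.70%), and the 1 of all 75 (1.33%), lower in every Top3b26 library, with 10.1%, 9.44% and 10.4%, against 11.3%, 12.6% and 16.2% in w1118.

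The methyl marks overlapped between Top3b26 and w1118 as well. H3K9me2 covered 27.2 ± 3.31% of bodies in Top3b26 and 28.6 ± 4.57% in w1118 (difference -1.45 points, exact permutation p = 0.5, adjusted 0.667, n = 3 each), and 9.73 ± 1.74% of flanks in Top3b26 and 9.99 ± 0.521% in w1118 (difference -0.264 points, exact permutation p = 1, adjusted 1, n = 3 each). H3K9me3 covered 29.2 ± 0.462% of bodies in Top3b26 and 28.0 ± 5.21% in w1118 (difference 1.14 points, exact permutation p = 1, adjusted 1, n = 3 each), and 8.68 ± 0.193% of flanks in Top3b26 and 7.87 ± 1.23% in w1118 (difference 0.814 points, exact permutation p = 0.3, adjusted 0.6, n = 3 each). Without w1118 replicate 1 the H3K9me2 differences were 1.19 points in bodies and 0.00515 points in flanks, the H3K9me2 flank difference without Top3b26 replicate 2 was 0.739 points, and the H3K9me3 body difference without w1118 replicate 1 was -1.87 points. GEO's description of H3K9me3 replicate 2 of Top3b26 names H3K9me2, while its title and antibody name H3K9me3. H3K9me3 in this library covered 91.1% of F bodies, between the values of the other 2 H3K9me3 libraries of Top3b26.

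By element, H3K9me2 bodies were lower in every Top3b26 library for 12 elements and higher for 3, against 0.431% and 0.156% of all 5-kb windows and 8.26% and 4.01% of covered windows. H3K9me3 bodies were lower for 9 and higher for 5, against 0.0431% and 0.507% of all windows and 2.27% and 12% of covered windows. Leaving out 1 library moved the H3K9me2 counts to at most 39 and 11, when w1118 replicate 3 and then replicate 1 was the one left out, and the H3K9me3 counts to at most 37 and 14, when it was w1118 replicate 1 and then replicate 2. Dm88 was the 1 family of 27 (3.70%) lower in H3K9me2 in every Top3b26 library, at 89.0%, 87.1% and 87.9%, against 93.3%, 91.9% and 93.1% in w1118. Its 13 elements lie at a single locus on 3R. Of all 75 families, 4 (5.33%) were lower in H3K9me2 in every Top3b26 library and 1 (1.33%) was higher.

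Few insertions had flanks that were mostly covered. Flanks were covered to at least 50% in every w1118 library for 35 elements in HP1, 29 in H3K9me2 and 25 in H3K9me3. HP1 and H3K9me2 shared 22, which was 62.9% of the HP1 set and 75.9% of the H3K9me2 set, and HP1 and H3K9me3 shared 21, which was 60.0% and 84.0%. The 21 elements in all 3 sets came from 4 loci, none of them isolated. By the same measure of bodies, 176 elements were covered in HP1, 154 in H3K9me2, 150 in H3K9me3 and 122 in all 3, of which 67 were isolated. At the other end, 228 elements had 0 flank coverage and 317 had 0 body coverage in all 9 w1118 libraries of the 3 targets.

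The largest block of marked flanks lay on 3R at 12469667 to 12500860, where 16 elements, 13 of them Dm88, filled the interval between the heat shock genes Hsp70Ba, 1890 bp away, and Hsp70Bbb, 1649 bp away. All 16 had HP1-marked flanks and 14 had flanks marked by each methyl mark in w1118. HP1 covered 37% and 71.4% of their bodies in AGO2 1-1-7, 86.6% and 82.6% in the double mutant, 75.2%, 86.6% and 97.7% in Top3b26, and 85.9%, 94.3% and 94.5% in w1118. The AGO2 1-1-7 libraries were the lowest of the 10 and lay further apart than the 3 of w1118.

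On 2L the 21 elements at 20150149 to 20222854, of 13 families, had HP1 over 16.2% and 15.8% of their bodies in AGO2 1-1-7, 49.7% and 47.3% in the double mutant, 25.2%, 35.5% and 62.3% in Top3b26, and 35.2%, 33.8% and 43.0% in w1118. Both double mutant libraries were thus above all 3 of w1118. The 5 elements at 2L 21397182 to 21416189 and the 8 at 2L 21539460 to 21570223 border the histone gene array, 763 bp from a His1 gene and 739 bp from a His2A gene. Their bodies had 53.1% and 50.5% HP1 in AGO2 1-1-7, against 77.8%, 71.3% and 73.3% in w1118 for the 5, and 49.2% and 56.9% in AGO2 1-1-7, against 77.4% in each w1118 library, for the 8.

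The X chromosome held a locus with more HP1 in AGO2 1-1-7 and a pair with less. HeT-A, a LINE-like element that builds fly telomeres, had 5 copies at X 103614 to 122492, near the tip. HP1 covered 88.4% and 94.4% of their bodies in AGO2 1-1-7, against 69.7%, 81.0% and 85.4% in w1118, so these copies were higher in AGO2 1-1-7. Their bodies had 94.0% and 86.6% in the double mutant, also above every w1118 library, and 73.2%, 90.7% and 90.7% in Top3b26. Their H3K9me3 was at 24.4%, 40.7% and 36.7% in Top3b26, against 23.3%, 13.2% and 13.2% in w1118, with every Top3b26 library above every w1118 library. The 8 elements at X 19911386 to 19956123, 4 of them Rt1c, had 0% HP1 in both AGO2 1-1-7 libraries, against 21.0%, 11.2% and 11.8% in w1118. At X 21147467 to 21174790 the 6 elements, 2 of them R1A1, had 27% and 29.9% HP1 in AGO2 1-1-7, against 45.4%, 51.7% and 63.6% in w1118.

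The elements with the highest flanks in w1118 came from these blocks. S{}4784, a TIR element of 1733 bp beside the histone genes, had HP1 over 64.7% and 84.0% of its flanks in AGO2 1-1-7, against 100% in all 3 w1118 libraries, and all 3 w1118 libraries of H3K9me3 at 100%. Dm88{}1661, an LTR element of the Hsp70 block, had 69.4% and 100% in AGO2 1-1-7, against 93.0%, 100% and 100% in w1118. The LTR element micropia{}1325 of the same block had 49.98% and 96.0% in AGO2 1-1-7, against 99%, 100% and 100% in w1118. Dm88{}1693, which overlaps micropia{}1325, had 92.9% H3K9me2 in its flanks in all 3 w1118 libraries. Other elements fill much of these flanks: 87.2%, 82.7%, 73.8% and 74.0% of the flank bases of the 4 elements lie in an annotated element.

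Among elements whose libraries did not overlap, the largest flank difference between AGO2 1-1-7 and w1118 was at X{}425, a LINE-like element of 2780 bp between genes on 2L (20107032 to 20109811). HP1 covered 3.31% and 4.31% of its flanks in AGO2 1-1-7, against 71.2%, 72.2% and 71.2% in w1118, and 57.2% and 75.2% in the double mutant. Its neighbour BS{}426, 107 bp away, had no HP1 in its body in either AGO2 1-1-7 library and 100% in all libraries of the other 3 lines. The words of these bodies are mostly rare, with 66.0% of X{}425 and 92.4% of BS{}426 found 3 times or fewer. Dm88{}1692 of the Hsp70 block, next in size, had 4.61% and 39.9% in AGO2 1-1-7, against 70.9%, 86.9% and 86.9% in w1118.

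Flanks were higher in AGO2 1-1-7 at HeT-A{}4795, 93.0% in both libraries, against 60.1%, 80.1% and 84.1% in w1118. S{}967, a TIR element of 1732 bp in an intron of Srg3, had 75.7% and 71.7% in AGO2 1-1-7, 53.7% and 52.7% in the double mutant, and 48.7%, 70.7% and 63.7% in w1118, and had the largest downward difference of the double mutant from AGO2 1-1-7 among elements whose libraries did not overlap. The second such element, copia{}131 in an intron of the adenylyl cyclase gene rut, had 3.00% and 0% in the double mutant, against 22.0% and 18% in AGO2 1-1-7. At copia{}131 the w1118 libraries had 15%, 41.6% and 3.00%.

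Between the double mutant and w1118, flanks were lower at Tirant{}24, an LTR element in an intron of the kinase gene Raf, with 0% in both double mutant libraries, against 22.5%, 85.8% and 33.5% in w1118. They were lower at S{}1208 on 3R too, with 6.18% and 7.18% in the double mutant, against 27.2%, 53.2% and 41.2% in w1118. They were higher at the overlapping pair H{}2191 and G2{}1640 of the 2L block, with 62.1% and 35.1% for H{}2191 in the double mutant, against 22.1%, 0% and 16.1% in w1118. The w1118 values of Tirant{}24 were spread widely, and its body was at 0.868% or below in every library.

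In Top3b26, 1 element had lower HP1 flanks in every library (0.248% of all 10-kb windows, 1.42% of covered windows) and 0 had higher (0.0539% and 0.52%). It was Quasimodo{}68, an LTR element in an intron of the calcium channel gene Ca-alpha1T, with 6.50%, 0% and 3.87% in Top3b26, against 9.24%, 14.9% and 8.24% in w1118. The lower count was between 5 and 33 without a library other than Top3b26 replicate 1, highest without Top3b26 replicate 3.

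H3K9me2 flanks were lower in Top3b26 for 9 elements and higher for 6 (0.701% and 0.259% of all windows, 8.35% and 4.01% of covered windows). Leaving out a library raised these counts to at most 24 without w1118 replicate 3 and 21 without Top3b26 replicate 2. copia{}910 in an intron of the titin-related gene sls had 17%, 0% and 16% H3K9me2 in Top3b26, against 38.0%, 53.0% and 23.9% in w1118, and 0% HP1 in its flanks and body in all 10 libraries. Burdock{}74 in an intron of pigs had 0% in all 3 Top3b26 libraries, against 17%, 17% and 32% in w1118. S{}1208 was higher, with 35.2%, 36.2% and 49.5% in Top3b26, against 25.3%, 3.34% and 28.2% in w1118, and so was the isolated TIR element HB{}482, with 54.4%, 27.6% and 36.4% in Top3b26, against 26.4%, 24.6% and 16.6% in w1118.

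H3K9me3 flanks were lower in Top3b26 for 2 elements and higher for 19 (0.0971% and 0.895% of all windows, 3.23% and 13.1% of covered windows). Leaving out a library raised these counts to at most 14 without w1118 replicate 1 and 30 without Top3b26 replicate 3 or w1118 replicate 2. Of the 19, 8 were isolated. INE-1{}6031 had 72.7%, 62.0% and 48.0% in Top3b26, against 30.3%, 42.0% and 30.0% in w1118, and HeT-A{}5504 had 45.0%, 56.0% and 65.0% in Top3b26, against 44.0%, 28.0% and 28.0% in w1118. The 2 lower elements, I{}188 and Rt1c{}5288, had at most 6.44% and 18.9% in their flanks in any H3K9me3 library. Rt1c{}5288, of which every word is found 3 times or fewer, had a body at 0%, 63.5% and 0% in Top3b26, against 100% in all 3 w1118 libraries.

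The longest elements with bare flanks in w1118 were roo{}1708 (26406 bp), roo{}1676 (21376 bp, in an intron of CG46244 and the receptor phosphatase gene Lar) and Doc{}1674 (12144 bp, in an intron of dnt). Bodies and flanks of both roo elements were at 0% in every HP1, H3K9me2 and H3K9me3 library of all lines. Doc{}1674 had 13.2% HP1 in its flanks in Top3b26 replicate 2 and 0% elsewhere. The 3 are among the 317 elements with empty bodies.

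Top3b and FLAG islands covered little of the element bodies. Top3b, and FLAG in untagged w1118, covered least where sequence was most repeated. Top3b in w1118 averaged 0.556 ± 0.540% in the 233 bodies with 0 to 2% of words found 3 times or fewer. It averaged 6.49 ± 8.80% in the 75 bodies at 10 to 25% and 4.74 ± 6.85% in the 48 at 90% or more (SD, n = 3). FLAG in untagged w1118 was at 1.18%, 3.76% and 8.03% in the same 3 sets. Top3b covered 0.371%, 4.16% and 2.54% of bodies in w1118, against 4.17%, 6.08% and 0.928% of the rest of euchromatin, so that replicate 3 alone was higher on bodies. FLAG covered 2.69% and 0.0990% of bodies in FLAG-AGO2 flies, against 2.46% in untagged w1118. Of the 27 families, 1360, Rt1b, S and FB were above 10% in a Top3b library, and 1360, Rt1b, S and H in a FLAG library. Top3b covered 4.43%, 54.7% and 16.7% of 1360 bodies, 7.29%, 0.479% and 54.8% of Rt1b bodies 0%, 25.0% and 0% of S bodies and 0.929%, 15.4% and 0.379% of FB bodies. FLAG covered 26.6% and 2.26% of 1360 bodies in FLAG-AGO2 flies, against 8.61% in untagged w1118, and 9.99% and 0% of Rt1b bodies, against 28.3% in untagged w1118. FLAG covered 12.4% and 0% of H bodies in FLAG-AGO2 flies, against 7.00% in untagged w1118. FLAG was at 0% on F, HMS-Beagle, Rt1c, I, X, Dm88 and hopper in all 3 FLAG libraries.

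In the complementation set HP1 covered 35.6% of bodies with the WT transgene, 28.8% with Y332F, 31.8% with dRGG, 33.4% in Top3b26 and 38.5% in w1118. F elements had 74.4% with WT, 36.4% with Y332F, 54.0% with dRGG, 75.3% in Top3b26 and 95.0% in w1118. HMS-Beagle had between 78.3% and 79.8% with the 3 transgenes, 61.9% in Top3b26 and 80.9% in w1118. With 1 library a line these differences have no replicate check and no test.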

How the data were processed

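The authors immunoprecipitated chromatin from adult heads, sequenced 50-base reads, aligned them to dm6, called islands with SICER against input and deposited 1 list of islands per library, 33 lists in all. Their methods name Bowtie with reads of more than 3 hits not counted, while the processing notes name Bowtie2, FastQC, SAMtools 1.8, SICER and bedtools. Column 4 of a list holds a score that the authors deposited without a header, so islands with a score of at least 200 were kept and its unit is not known. Read depth is not known, so no counting interval can be given. The 22 input samples have no lists and were not used here.

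Elements of at least 1000 bp, flanks of 5 kb and, as background, windows of 10 kb (flanks) and 5 kb (bodies) were taken from the RefSeq annotation, and coverage was computed with Python 3.11.15, numpy 2.4.6 and matplotlib 3.10.9. A 50-base word was counted over both strands of the genome. An element was called lower or higher when the libraries of 2 lines did not overlap. Lines were compared by 12 exact two-sided permutation tests over libraries, and elements with the rest of euchromatin by 6 exact two-sided sign-flip tests, each family with Benjamini-Hochberg adjustment. The code was tested on simulated data. Elements are named by rules: the 3 with the highest flanks in w1118 for each target, the 2 with the largest flank difference in each comparison and direction among those called, all families with 8 or more members, and the 3 longest with bare flanks. The members, rules and lists were chosen with earlier results of these data known. The 6 elements whose sequences are shown were also chosen after values were seen.

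Same-numbered HP1 libraries of Top3b26 and w1118 deviated together (r = 0.594, 0.745 and 0.491 over elements), so these numbers pair the libraries, from the data and not from the labels. For H3K9me2 (r = 0.447, 0.300 and 0.0732) and H3K9me3 (r = 0.176, 0.0421 and 0.203) they did not by the same measure, and the other comparisons have only 2 pairs. The HP1 lists of replicates 2 and 3 of both Top3b26 and w1118 join islands over a longer distance, and its part in the pairing was not tested. Alternatives were other score minimums (none and 400), equal numbers of islands, longer elements, other flank widths, isolated elements, equal family weights, subtraction of the rest of euchromatin, and leaving out each library. Counts of elements under other minimums and without each library were added after seeing the data.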

Additional observations from a re-analysis of the deposited data

Results flagged for a closer look

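In means over libraries, the difference in HP1 body coverage that goes with AGO2 1-1-7 was not the same in the Top3b26 and the w1118 background. The double mutant averaged 4.36 points above Top3b26, while AGO2 1-1-7 averaged 12.5 points below w1118 (-12.5). The difference of these differences was 16.9 points (exact permutation test within each background, 100 relabellings, p = 0.04, added after seeing the data). Such relabelling assumes that AGO2 1-1-7 makes no difference in either background. A small p can thus come from the w1118 background alone, and whether the 2 differences are equal was not tested. Every AGO2 1-1-7 library was below every w1118 library, but the double mutant and Top3b26 libraries overlapped. Top3b26 replicate 3, at 33.2%, was above both double mutant libraries. The difference of differences was 99.4 points for F, 76.0 for HMS-Beagle, 67.97 for hopper, 56.6 for Rt1c and 44.6 for I. hopper was nearly full or nearly empty by library. The value was negative for FB (-5.07), 3S18 (-3.92), pogo (-0.363) and flea (-0.0974). No test was made for any family. In flanks the difference was 3.95 points (exact permutation p = 0.39).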

How the results depend on the processing

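Of 192 alternatives to the 12 comparisons between lines, 173 kept their direction and 19 changed it. None of the 12 could pass 0.05 with these numbers of libraries, so their side of the threshold was fixed in advance. Of 54 alternatives to the 6 comparisons with the rest of euchromatin, 47 kept their direction and their side of the threshold and 7 no longer passed. The differences of AGO2 1-1-7 from w1118, and the body difference of the double mutant from AGO2 1-1-7, kept their direction under every alternative run. Isolated elements with the rest of euchromatin subtracted were not among these alternatives. The cause of each change was not tested, except that 3 libraries cannot give a p below 0.25.

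Subtracting the rest of euchromatin gave 1.09 points for double mutant minus w1118 flanks and 0.317 for H3K9me2 flanks. Using only lists with the shorter distance between islands gave 0.0517 for double mutant minus w1118 flanks. Isolated elements gave -0.119 for double mutant minus AGO2 1-1-7 flanks, and 0.0647 (exact p = 0.781) for H3K9me2 flanks against the rest. Equal numbers of islands gave 0.0763 for H3K9me2 flanks and -1.75 for H3K9me3 bodies. Equal family weight gave 0.566 for H3K9me2 flanks and -0.209 for double mutant minus w1118 bodies. Leaving out flank bases in other elements gave 0.202 for H3K9me2 flanks. Elements with at least 50% of words found 3 times or fewer gave -0.335 for double mutant minus w1118 bodies and 1.12 for H3K9me2 bodies. H3K9me3 bodies gave -0.869 with no score minimum and -0.400 for elements of 2000 bp or more. With w1118 libraries alone, elements exceeded the rest by 6.01, 6.70 and 7.01 points in flanks and 22.6, 25.3 and 27.2 points in bodies for HP1, H3K9me2 and H3K9me3 (exact sign-flip p = 0.25).

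Leaving out 1 library at a time, flank differences ranged over -2.42 to 1.11 points for HP1 in Top3b26, -7.30 to -4.20 for AGO2 1-1-7 minus w1118, -4.04 to -1.40 for double mutant minus w1118, 1.52 to 4.62 for double mutant minus AGO2 1-1-7, -0.816 to 0.739 for H3K9me2 and 0.105 to 1.18 for H3K9me3. Body differences ranged over -5.41 to -0.643, -13.2 to -11.9, 0.361 to 3.84, 12.9 to 16.3, -3.33 to 1.19 and -1.87 to 2.82 in the same order.

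With same-numbered libraries paired as a replicate block, flank differences were -0.879, -5.66, -2.59, 3.07, -0.264 and 0.814 points and body differences -2.26, -11.9, 2.72, 14.6, -1.45 and 1.14 points, again in that order, and every direction was kept.

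Of 176 alternatives to counts of elements, 89 moved a count by over 1.5 times. Leaving out a library can only relax the call: elements with lower flanks in AGO2 1-1-7 then numbered 113 to 166 in place of 104, and elements with higher bodies in the double mutant than in w1118 21 to 90 in place of 17. With no score minimum 17 elements had higher flanks in AGO2 1-1-7 in place of 5, and 12 had higher bodies in place of 6.

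Depth is not known, bodies are mostly repeated sequence, and the insertions are those of the reference strain.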

Other observations

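Elements too short for the main set had HP1 too. The 1279 elements under 1000 bp had 20.9% of their bodies covered in AGO2 1-1-7, 29.6% in the double mutant, 28.3% in Top3b26 and 31.4% in w1118. The 148 elements of families with fewer than 8 members had 20.3% in AGO2 1-1-7, 42.9% in the double mutant and 41.6% in w1118. By class, HP1 covered 3.88% of LTR bodies in AGO2 1-1-7 and 13.2% in w1118, 24.2% of LINE-like bodies in AGO2 1-1-7 and 49.6% in w1118, and 43.6% of TIR bodies in AGO2 1-1-7 and 49.9% in w1118. The 18 elements of other kinds, 13 of them FB, ran the other way, with 39.8% in AGO2 1-1-7 and 20.8% in w1118.

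6 elements had at least 50% body coverage in every HP1 library of w1118 and 0 flank coverage in all 9 w1118 libraries, and 5 of them were isolated. 1 element had flanks of at least 50% and a body at 0.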
